A study of Mus musculus with 5 samples.

Results

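Expression of 10 oxidative stress and iron genes was followed through the cells of the mouse lung after bleomycin injury. The genes were Hmox1, Slc7a11, Gclm, Gclc, Txnrd1, Srxn1, Fth1, Ftl1, Slc40a1 and Slc11a1. They were taken by symbol from the feature table, where each of the 10 matched 1 of 28693 features. All animals carried the same alleles, Ms4a3-CreER;R26-tdT, a tamoxifen-inducible Cre driven by Ms4a3 together with a tdT reporter, and the lineage label was induced with tamoxifen. The 5 libraries came from adult lungs: 1 PBS-treated (sham) library and 1 each from lungs taken 3, 7, 14 and 28 days after intratracheal bleomycin, a DNA-damaging drug that gives an acute inflammation followed by fibrosis. Cells were labelled as immune cells, and the number of mice behind a library is not given in the sources used here. Each condition therefore had 1 library, and no difference between days could be tested. Cell classes within the libraries were compared with a test in which the library was the block.

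Hmox1, Slc7a11, Gclm, Gclc, Txnrd1 and Srxn1 are textbook targets of NRF2, a transcription factor that is held down by KEAP1 and is released when electrophiles or oxidants modify KEAP1. It binds the antioxidant response element (ARE) beside its targets, where the repressor BACH1 can also sit until heme removes it. Ferritin, a shell of Fth1 and Ftl1 chains, stores iron, Slc40a1 exports it and Slc11a1 moves divalent metals out of the phagosome. Macrophages meet iron mainly as heme from engulfed red cells, and cells of the airspace also meet oxygen directly.

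Hmox1 (chr8:75093621-75100589, + strand, GRCm38) encodes heme oxygenase, which opens the heme ring and frees its iron. Slc7a11 (chr3:49892526-50443614, − strand) encodes the cystine-importing chain of system xc−. Gclm (chr3:122245557-122270732, + strand) and Gclc (chr9:77754535-77794485, + strand) encode the modifier and the catalytic chain of glutamate-cysteine ligase, the first step of glutathione synthesis. Txnrd1 (chr10:82833951-82897712, + strand) encodes cytosolic thioredoxin reductase and Srxn1 (chr2:152105516-152111376, + strand) encodes sulfiredoxin, which repairs over-oxidised peroxiredoxins. Fth1 (chr19:9980598-9985098, + strand) and Ftl1 (chr7:45457944-45459884, − strand) encode the heavy and light ferritin chains. Slc40a1 (chr1:45908068-45926523, − strand) encodes ferroportin and Slc11a1 (chr1:74375195-74386062, + strand) encodes NRAMP1.

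The ARE core was searched as TGACNNNGC and TGAGNNNGC on both strands, from 250 bases before to 50 bases after each RefSeq start (GRCm38.p6). A promoter was given for 7 of the 10 genes, and Hmox1, Gclc and Slc40a1 were not in the table. At least 1 core was found for Srxn1, Slc7a11, Gclm, Txnrd1 and Slc11a1, and none for Fth1 or Ftl1. Either core was present in 27.8% of 32851 promoters, so a match is common. The windows below carry the core in capitals and are shown for the NRF2 targets that had a promoter in the table. Slc11a1, not named above as an NRF2 target, had a core 52 bases before its start, which is not shown. Each is written along the strand of its gene, so a core on the other strand appears as its reverse complement.
Srxn1, chr2:152105469-152105498: aaattcacccTGAGTCAGCggccgggcgcg
Slc7a11, chr3:50443691-50443720: taatgttggcGCTTTCTCAagctggagttt
Gclm, chr3:122245413-122245442: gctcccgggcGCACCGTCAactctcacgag
Txnrd1, chr10:82859104-82859133: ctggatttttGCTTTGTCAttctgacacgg
The Srxn1 core shown lies 45 bases before the start and overlaps the AP-1 letters TGAGTCA, which 5.20% of all promoters held. Srxn1 had 2 more cores, at 158 bases before and 28 bases after its start. For Slc7a11, Gclm and Txnrd1 the core lay 97, 134 and 92 bases before the start, and for Txnrd1 it was in 1 of 3 promoters listed. A match describes letters and was not tested as a binding site.

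Both ferritin genes and Slc40a1 carry in the 5′ untranslated region of their mRNA an iron responsive element (IRE), a hairpin to which iron regulatory proteins bind when iron is low and block translation. These elements are shown because UMIs count mRNA, while the hairpin acts on translation, so that the levels below may differ from those of the proteins. The loop CAGTGN is in capitals, and 5 bases on each side of it pair with one another.
Fth1, chr19:9982734-9982761: cctgcttcaaCAGTGCttgaacggaacc
Ftl1, chr7:45459778-45459805: cttgcttcaaCAGTGTttgaacggaaca
Slc40a1, chr1:45925464-45925491: acttcagctaCAGTGTtagctaagtttg
A loop with its bulged C was found in the 5′ untranslated region of 1648 of 20873 genes (7.90%), and with the paired stem in 21 genes (0.101%). No such element was searched for outside the 5′ untranslated region.

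The libraries held 52800 barcodes and between 89769386 and 167506186 UMIs. Kept were 44772 barcodes, those that had 300 to 8000 genes and 800 to 60000 UMIs, less than 15% of them mitochondrial, with a median of 9260 to 14254 UMIs per cell and library. The day 7 library stood apart, with exactly 10000 barcodes and none under 4624 UMIs, where the lowest barcode of the other libraries had 500 to 502. A pair of libraries shared 22 to 41 barcode sequences. Cells were assigned to 18 classes by 87 marker genes, none of them a member, and 40696 cells (90.9%) took a class. A class name stands below for cells that resemble the type by those markers alone. The label of immune cells held for most cells, although epithelial, endothelial and fibroblast classes were present as well.

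Each level is in CPM, which scales the UMIs counted for a gene to 1000000 UMIs of its class and library. A level is shown only where at least 50 cells stood behind it. These are 3′ counts with 1 UMI per captured molecule, so no length correction applies. For the 2 ferritin genes, related sequences elsewhere in the genome could share reads, and their UMIs are uncertain to that extent. Of the 16 ranked classes that had 50 cells in at least 1 library, alveolar macrophages (AMs) had the highest median level over libraries for Hmox1, Srxn1, Fth1 and Ftl1. A mixed class, with alveolar and interstitial macrophage scores close together, was left out of the ranks. Over its 2 libraries of at least 50 cells it had medians of 28462 CPM of Fth1 and 20863 CPM of Ftl1. Those of AMs were lower, at 27961 and 18274 CPM. Epithelial cells led for Gclc, Gclm and Txnrd1, neutrophils for Slc7a11 and Slc40a1, and nonclassical monocytes for Slc11a1. These orders are descriptions without a test.

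**Figure D1:**
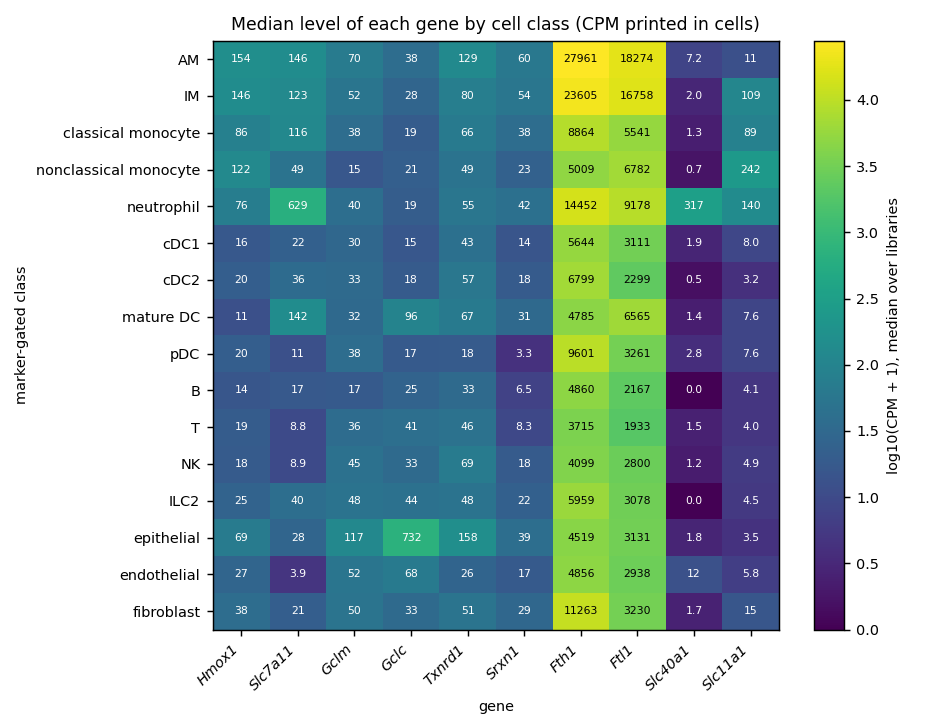
Levels of the 10 genes, in CPM, by cell class, from libraries with at least 50 cells of the class. Neutrophils stand alone for Slc40a1 and Slc7a11 and epithelial cells for Gclc, while macrophage classes share the top for Hmox1, Fth1 and Ftl1.

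Hmox1 transcript was most abundant in macrophages. In AMs it stood at 120, 207, 185, 135 and 154 CPM in the sham, day 3, day 7, day 14 and day 28 libraries. Interstitial macrophages (IMs) had 146, 245, 186, 115 and 144 CPM, so that the ranges of both macrophage classes overlapped and the day 3 library was highest in each. Ranges of nonclassical monocytes, classical monocytes and neutrophils also overlapped that of AMs. NK cells did so by the sham library alone, at 154 CPM from 3.97% of 151 cells, and had a median of 17.7 CPM over libraries, and the lowest class, mature dendritic cells (DCs), had a median of 11.3 CPM.

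Slc7a11 was highest in neutrophils in all 5 libraries. Neutrophils held 1142, 629, 319, 926 and 578 CPM, all above the highest AM library. AMs, the next class by median, held 76.9, 155, 169, 146 and 68.9 CPM. The neutrophil median was 4.31 times the AM median and the ranges of no other class reached that of neutrophils. Free neutrophil RNA, scaled from the neutrophil markers found in the AM sums, would have brought AMs between 1.67 and 2.74 CPM of Slc7a11.

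The chains of glutamate-cysteine ligase were highest in epithelial cells, and Gclc was the more restricted of the pair. Epithelial Gclc was 295, 912 and 732 CPM at days 7, 14 and 28, the libraries with at least 50 such cells, and was 137 and 176 CPM in the 47 and 20 epithelial cells of the sham and day 3 libraries. Mature DCs came second with 237 CPM in the sham library and 67.1, 94.1, 155 and 96.4 CPM at days 3, 7, 14 and 28. The epithelial median was 7.59 times that of mature DCs. Epithelial Gclm was 94.5, 117 and 153 CPM, above the AM range of 60.1 to 83.9 CPM, but the 47 sham epithelial cells had 41.6 CPM, under the 64.7 CPM of sham AMs, and the 20 of day 3 had 89.5 CPM.

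Thioredoxin reductase and sulfiredoxin showed flatter orders. Txnrd1 had a median of 158 CPM in epithelial cells and 129 CPM in AMs, and these ranges overlapped. The sham and day 3 epithelial cells, under 50 each, had 35.8 and 47.5 CPM of Txnrd1. Srxn1 had a median of 60.3 CPM in AMs and 53.8 CPM in IMs, and 6 of the ranked classes overlapped the AM range.

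Ferritin messages took several percent of all macrophage UMIs. AMs held 19476.5, 28367.5, 36926, 26861 and 27961 CPM of Fth1 and 13749, 18274, 20248, 17550 and 20028 CPM of Ftl1 in the sham, day 3, day 7, day 14 and day 28 libraries. Both chains were lowest in the sham library and highest at day 7. Together they made up 3.32%, 4.66%, 5.72%, 4.44% and 4.80% of all AM UMIs. IMs followed with medians of 23605 CPM of Fth1 and 16758 CPM of Ftl1, and their ranges overlapped those of AMs. T cells, the lowest class, had 3715 CPM of Fth1 and 1933 CPM of Ftl1. The ratio of Fth1 to Ftl1 UMIs in AMs was 1.42 in the sham library, 1.82 at day 7 and 1.40 at day 28.

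Slc40a1 was highest in neutrophils by a wide margin. They held 328, 265, 75.2, 317 and 365 CPM, and the day 7 library was the low one. Endothelial cells, the next class, had a median of 11.6 CPM from 2 to 4 UMIs in a library, 27.4 times under the neutrophil median. AMs had 2.94, 2.19, 7.23, 11.7 and 19.3 CPM. The IM value of the sham library, 17.5 CPM, came from 16 UMIs in 63 cells, and IMs of injured lungs had 0.95 to 2.27 CPM. No UMI of Slc40a1 was seen in the B cells of the sham, day 14 and day 28 libraries.

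Slc11a1 was highest in nonclassical monocytes, with 271 and 214 CPM in the sham and day 3 libraries, the only ones with 50 such cells. Neutrophils held 140, 155, 48.7, 140 and 79.1 CPM and IMs held 112, 198, 99.9, 83.9 and 109 CPM. AMs had 3.02, 18.1, 11.2, 6.73 and 11.8 CPM. The ranges of AMs and IMs did not overlap.

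Shares of cells with a UMI were compared after each cell was thinned to 2000 UMIs. The median share over libraries was 20.5% for Hmox1, 18.8% for Slc7a11 and 22.8% for Txnrd1 in AMs, against 2.28%, 1.16% and 6.09% in B cells, a type not known for these genes. Without thinning these AM shares were 78.2%, 52.5% and 76.1% and the B cell shares 5.83%, 3.01% and 11.9%. In AMs, Slc11a1 reached 1.65% and Slc40a1 1.24% of thinned cells, beside 0.85% and 0% in B cells, so that both were rare in either class. Neutrophils had Slc40a1 in 45% and Slc7a11 in 61.9% of thinned cells. Gclc gave 7.08% in AMs, 5.13% in B cells and 9.23% in T cells.

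AMs and IMs differed in few of the 10 genes. The comparison asked whether macrophages with airspace markers and those with interstitial markers carry different amounts of these transcripts, over the 5 libraries. AMs were gated by markers on every day, so resident and monocyte-derived AMs were not told apart. Cells of the mixed class were in neither group. By edgeR's quasi-likelihood test with Benjamini-Hochberg adjustment over 14089 genes, Txnrd1 was 1.52-fold higher in AMs (log2 0.61, SE 0.16, adjusted p = 0.0213, higher in 5 of 5 libraries). Slc11a1 was 14.0-fold lower (log2 −3.81, SE 0.30, adjusted p = 0.000182, lower in 5 of 5). Thus 1 of 10 genes was higher and 1 lower, beside 17.9% and 18.4% of all genes. The other 8 did not pass, and for Fth1 and Ftl1 the log2 differences were 0.19 and 0.02 with SE of 0.23 and 0.18. Without the day 3 library, Txnrd1 had a log2 difference of 0.49 and an adjusted p of 0.0528, whereas Slc40a1 passed without the sham library and its 63 IMs (log2 2.19, adjusted p = 0.00215) and Gclm without day 28 (0.52, adjusted p = 0.0306).

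Other NRF2, iron and redox genes differed between the same 2 classes as well. Of 23 NRF2 targets and regulators tested, 9 were higher in AMs and 3 lower, with a median log2 difference of 0.32 against −0.03 over all genes. Gsr, glutathione reductase, rose by 2.38 on the log2 scale (SE 0.25), Gstm1, a glutathione transferase, by 1.95 (SE 0.17) and Nqo1, a quinone reductase, by 1.45 (SE 0.33). Nfe2l2, the gene of NRF2 itself, was lower by a log2 difference of −0.41 (SE 0.10), as were Esd and Blvrb. Of 22 iron and heme genes 7 were higher, among them Ncoa4, the ferritin receptor of autophagy (log2 1.49), Fbxl5, which removes an iron regulatory protein (1.43), and Slc39a14, a metal importer (1.04). Lower were 5, led by Cd163, the hemoglobin scavenger receptor (−5.51), Cp, ceruloplasmin (−2.60), and Steap3, a ferric reductase (−2.40). Glutathione and peroxide genes divided into 3 higher and 5 lower of 20, with Prdx4 (−1.45), Prdx6 (−1.27) and Gpx3 (−1.58) lower and Cat (0.99) and Sod1 (0.50) higher. Of 6 subunits of the NADPH oxidase, Cybb was higher (0.67) and Ncf4 (−1.20) and Cyba (−0.84) lower. None of 5 red cell transcripts passed.

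Set against classical monocytes, AMs had more of most members. Over the 4 libraries with at least 20 monocytes (sham and days 3, 7 and 14), 7 of 10 genes were higher and 1 lower, beside 18.9% and 16.4% of 12355 genes tested. The median log2 difference was 0.82 for the members and 0.06 for all genes. Fth1 and Ftl1 were 3.52-fold and 2.84-fold higher (log2 1.82, SE 0.38, and 1.50, SE 0.32, with edgeR adjusted p of 0.00554 and 0.00596). Txnrd1 rose 2.42-fold (log2 1.27, SE 0.29, adjusted p = 0.00827) and Gclm 1.89-fold (0.92, SE 0.24, adjusted p = 0.0150). Slc40a1 was 3.61-fold higher (adjusted p = 0.0155), from 2, 9, 4 and 0 UMIs in monocytes. Gclc was 1.61-fold (adjusted p = 0.0396) and Hmox1 1.60-fold higher (adjusted p = 0.0492), Hmox1 in 3 of 4 libraries only. Slc11a1 was 13.4-fold lower in AMs (log2 −3.74, SE 0.34, adjusted p = 6.29e-05). Slc7a11 and Srxn1 had log2 differences of 0.73 and 0.71 and adjusted p-values of 0.102 and 0.0723. Without the day 7 library 5 of the 10 genes passed: Hmox1, Ftl1 and Slc40a1 did not, with adjusted p-values of 0.205, 0.0590 and 0.0645. Hmox1 also missed the threshold without the sham (0.126) or day 14 library (0.159), with RLE normalization (0.0575) and with DESeq2 (0.0651), and Gclc without the sham (0.15), day 3 (0.0514) or day 14 library (0.0883). Without day 3, Slc7a11 (0.0467) and Srxn1 (0.0113) passed.

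Among the wider lists, 8 of 23 NRF2 genes were higher in AMs than in monocytes and 2, Bach1 (log2 −0.68) and Nfe2l2 (−0.51), were lower. Me1, malic enzyme, rose by 2.17, Gstm1 by 1.98 and Cat, catalase, by 1.61. Iron and heme genes gave 8 higher and 2 lower of 21, with Ncoa4 at 2.52, Trf, transferrin, at 1.78 and Blvra, biliverdin reductase, at 1.57, and with Hfe (−1.31) and Steap3 (−1.24) lower. Of 20 glutathione and peroxide genes 4 were higher, including Txn1 (1.35) and Prdx1 (1.10), and 4 lower, including Prdx6 (−1.75), Prdx5 (−0.74) and Gpx1 (−0.69). In the NADPH oxidase Ncf1 was higher (0.91) and Ncf4 (−1.77) and Rac2 (−0.97) lower, of 6. Red cell transcripts moved as well, and 2 of 4 tested passed as higher in AMs. These were Hba-a2 (log2 1.58, higher in 2 of 4 libraries) and Hbb-bs (1.42, in 3 of 4). The summed level of red cell transcripts was 260, 3.76, 0.526 and 547 CPM in the AMs of the sham, day 3, day 7 and day 14 libraries. In the monocytes of the sham, day 3 and day 7 libraries it was 46.3, 6.48 and 1.54 CPM. The part of these transcripts in the Hmox1 and ferritin differences was not tested.

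IMs exceeded classical monocytes in 3 members. Ftl1 was 2.56-fold (log2 1.36, SE 0.33, edgeR adjusted p = 0.0320), Fth1 2.69-fold (1.43, SE 0.36, adjusted p = 0.0363) and Hmox1 1.77-fold higher (0.83, SE 0.22, adjusted p = 0.0457), each in 4 of 4 libraries. No member was lower. Over all 11930 genes, 5.47% were higher and 6.35% lower. Each of the 3 calls was lost with a library left out: without the day 7 or the day 14 library, which had 37 monocytes, none of the 10 genes passed, and without the sham library Ftl1 alone did. Slc11a1, with a log2 difference of 0.17 and SE of 0.16, did not pass. In the lists, 4 of 22 NRF2 genes were higher, including Blvrb (1.32), Txn1 (0.89) and Sqstm1 (0.83), and 3 were lower, Gsr (−2.09), Bach1 (−0.95) and Taldo1 (−0.83). Of 21 iron and heme genes, 4 were higher, with Cd163 at 3.83, Steap3 at 1.11 and the heme transporter Slc48a1 at 0.95, and Lcn2 was lower (−1.09). Of 20 glutathione and peroxide genes 3 were higher and 2 lower, and of the oxidase subunits Rac2 was lower (−0.95). Of 5 red cell transcripts 1 passed as higher, in 3 of 4 libraries.

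Neutrophils exceeded classical monocytes in the cystine importer and in ferroportin. Slc7a11 was 13.5-fold higher (log2 3.75, SE 0.80, edgeR adjusted p = 0.00811) and Slc40a1 325-fold higher (log2 8.34, SE 0.65, adjusted p = 6.96e-05), both in 4 of 4 libraries. The Slc40a1 fold is a fitted value that rests on the same 2, 9, 4 and 0 monocyte UMIs. With the day 7 floor of 4624 UMIs set in every library, the log2 differences were 2.95 for Slc7a11 and 7.44 for Slc40a1, and Fth1 passed as well (1.01, adjusted p = 0.0309). Without that floor no other member passed, and none was lower, beside 18.7% of 10025 genes higher and 13.6% lower. Fth1 and Ftl1 had log2 differences of 1.33 and 0.94 with adjusted p-values of 0.0507 and 0.0718. Without the day 7 library, the one with a floor of 4624 UMIs, 6 members passed, with Txnrd1 (log2 0.74), Fth1 (1.47), Ftl1 (1.00) and Slc11a1 (0.94) added. The median neutrophil had 8277 UMIs at day 7 and 2162 to 3396 in the other libraries.

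Other iron genes were divided between neutrophils and monocytes. Of 18 iron and heme genes 3 were higher and 3 lower, beside 18.7% and 13.6% of all genes. The higher ones were led by Lcn2, lipocalin, which binds bacterial iron carriers (log2 8.02), and Steap4, a metalloreductase (7.55), and Lrp1 and Steap3 were among the lower ones. NRF2 genes gave 6 higher and 2 lower of 20, with Osgin1 at 4.55, Txn1 at 2.18 and Gsr at 1.97. Of 20 glutathione and peroxide genes 4 were higher, with Glrx at 1.35, and 5 lower, with Prdx4 (−1.60), Prdx2 (−1.43) and Txn2 (−1.26). Of the oxidase subunits, Rac2 (1.97) and Ncf1 (1.71) were higher and Cybb (−1.50) lower. All 4 red cell transcripts tested passed as higher in neutrophils, Hba-a2 with a log2 difference of 4.95. Hba-a2 was higher in 3 of 4 libraries, Hbb-bt in 2 of 4 and Hbb-bs in 4 of 4. Red cell transcripts reached 1447 and 5462 CPM in the neutrophils of the sham and day 14 libraries.

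**Figure D2:**
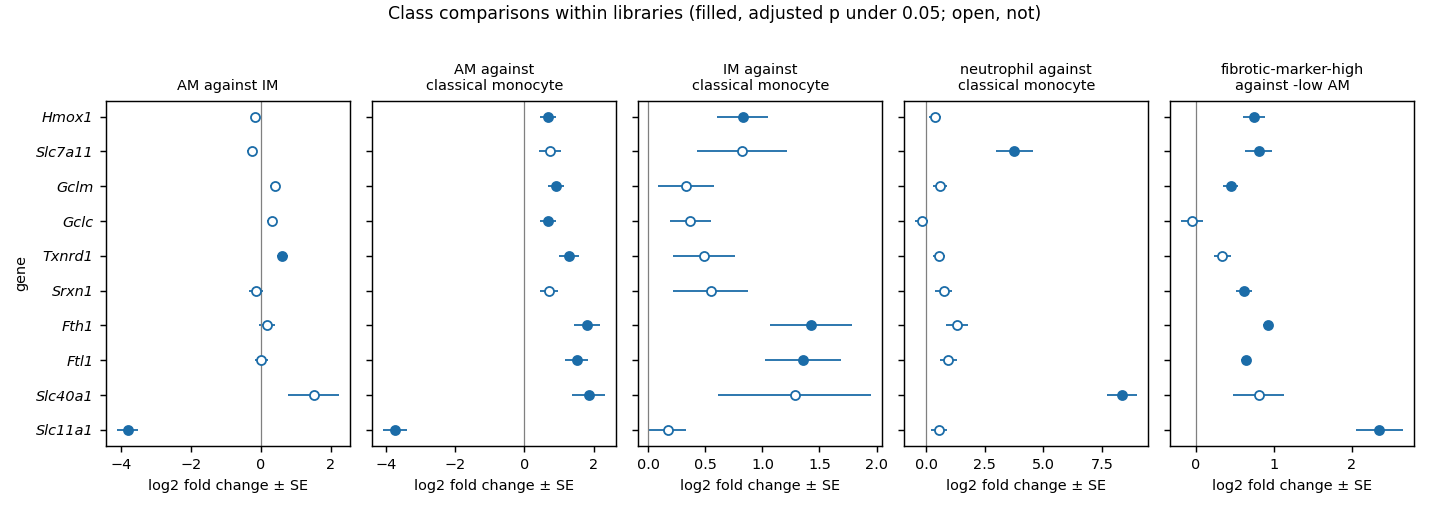
Log2 difference between cell classes for each of the 10 genes, with bars of 1 standard error derived from edgeR's F statistic. Each panel has its own horizontal scale. Filled points passed the adjusted p threshold of 0.05: most genes do so for AMs against classical monocytes, while Slc11a1 stands far to the low side in both AM panels.

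Macrophages with a fibrotic marker profile were described next. AMs with a UMI of at least 2 of the 3 genes Gpnmb, Mmp12 and Mfge8 were compared within each library with AMs that had none. There were 657, 126, 665, 1163 and 3390 marker-high and 269, 95, 161, 87 and 66 marker-low AMs in the sham, day 3, day 7, day 14 and day 28 libraries. Marker-high cells held more of 7 members in 5 of 5 libraries, and no member was lower. The background over 10046 genes was 3.19% higher and 1.47% lower.

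Fth1 was 23670, 37766, 38615, 27959 and 28664 CPM in marker-high AMs and 12328, 18419, 20748, 17886 and 16038 CPM in marker-low AMs. Every marker-high library lay above every marker-low one (1.90-fold, log2 0.93, SE 0.07, edgeR adjusted p = 8.29e-06). Ftl1 was 14418, 19733, 20523, 18177 and 20435 CPM against 10472, 14053, 11670, 12578 and 13168 CPM, again without overlap (1.56-fold, log2 0.64, SE 0.06, adjusted p = 0.000113). Hmox1 was 148, 204, 193, 139 and 150 CPM against 79.2, 171, 113, 53.7 and 134 CPM, and these ranges overlapped across libraries although each library kept the order (1.67-fold, log2 0.74, SE 0.14, adjusted p = 0.0108).

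Slc7a11 was 106, 175, 182, 146 and 70.3 CPM in marker-high and 31.5, 113, 159, 96.2 and 37.1 CPM in marker-low AMs (1.75-fold, log2 0.81, SE 0.17, edgeR adjusted p = 0.0189). Both groups were high at days 3 and 7. Srxn1 was 71.4, 73.4, 54.5, 61.6 and 35.0 CPM against 42.0, 54.7, 36.6, 47.3 and 21.6 CPM (1.53-fold, log2 0.62, SE 0.10, adjusted p = 0.00587). Gclm was 71.2, 64.0, 89.4, 77.7 and 70.4 CPM against 51.4, 51.3, 59.9, 72.9 and 49.4 CPM, the smallest difference that passed (1.36-fold, log2 0.44, SE 0.10, adjusted p = 0.0256). Slc11a1, low in all AMs, was 6.15, 29.6, 17.6, 7.82 and 12.6 CPM against 2.10, 6.69, 3.33, 1.60 and 0 CPM (log2 2.35, SE 0.31, adjusted p = 0.00105). Txnrd1, Slc40a1 and Gclc had log2 differences of 0.34, 0.81 and −0.05 and adjusted p-values of 0.105, 0.207 and 0.912.

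Depth and other markers moved with this split. The median marker-high AM had 19051 to 25445 UMIs per library and the median marker-low AM 7392 to 14958. With the markers called after thinning to 5000 UMIs, a choice made after the data were seen, 5 members passed. Fth1 had a log2 difference of 0.78 and Slc11a1 of 2.65, while Hmox1 (0.47, edgeR adjusted p = 0.167) and Gclm (0.09, adjusted p = 0.424) no longer passed. IM markers summed to 45.3 to 363 CPM in marker-high and 24.7 to 325 CPM in marker-low AMs, with no IM marker at 0 but 1 in the marker-low cells of the sham library. RNA of IMs at these levels would have brought 0.421 to 3.83 CPM of Slc11a1 to marker-high and 0.229 to 2.75 CPM to marker-low AMs. In marker-low AMs this estimate exceeded the measured level at day 14 (2.75 against 1.60 CPM) and day 28 (2.12 against 0 CPM). These sums held 1243994 and 645125 UMIs of all tested genes, so few UMIs of Slc11a1 stood behind either level. The difference between estimate and level was not tested. Among cells with an IM score under 0.1, also chosen after the data were seen, 6 members passed, Slc11a1 with a log2 difference of 2.27 and an adjusted p of 0.00560, and Gclm did not (adjusted p = 0.0640). Without the day 28, the day 7 and the sham library in turn, Slc7a11 (adjusted p = 0.0686), Hmox1 (0.0516) and Gclm (0.0929) did not pass. Gclm also missed it without day 7 (0.130) and day 28 (0.0902), and Txnrd1 passed without day 3 (0.00740). Removing the library block left none of the 7.

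Of the wider lists in the same AMs, 4 of 19 NRF2 genes were higher and none lower, with Gstm1 at a log2 difference of 1.16 (SE 0.12), Esd at 0.90 and Prdx1 at 0.65. Cybb (0.47) and Cyba (0.36), the membrane pair of the NADPH oxidase, were higher, 2 of 6 subunits. Of 16 iron and heme genes only Trf passed, lower by a log2 difference of −0.32 (SE 0.07), and of 20 glutathione and peroxide genes only Prdx1. None of 4 red cell transcripts passed.

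**Figure D3:**
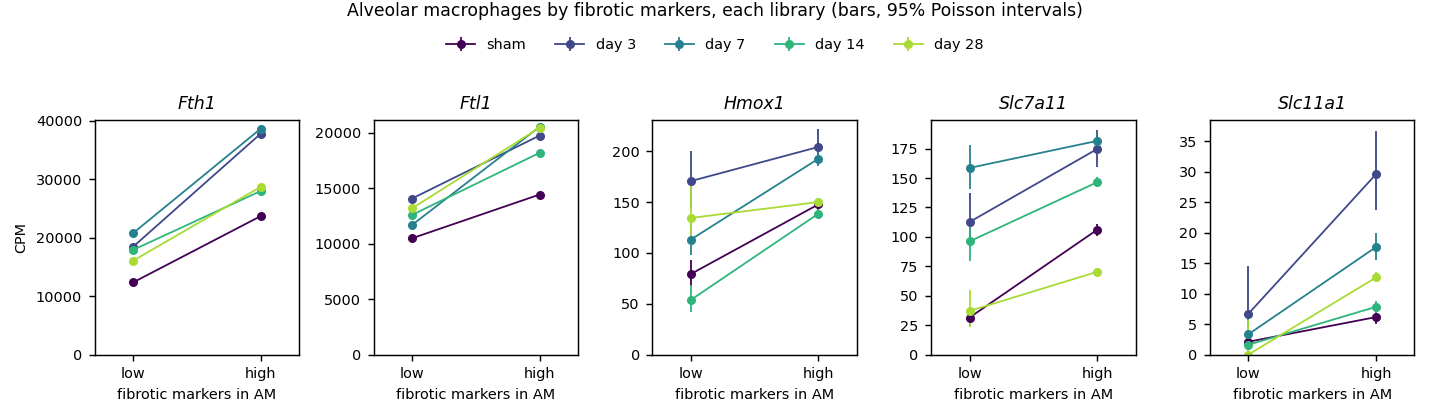
Level of each gene shown, in CPM, in AMs with at least 2 of 3 fibrotic markers and in AMs with none, with a line joining the pair of a library. The lines of Fth1, Ftl1, Hmox1, Slc7a11 and Slc11a1 run the same way in all 5 libraries.

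The course after bleomycin is given as ratios of CPM to the sham library, for genes that reached 20 CPM in the sham library or on the day compared. With 1 library per day it has no replicate check, so animal, library and day cannot be told apart. Few members moved in AMs. Of 8 above this level, Slc7a11 reached 2-fold at day 3 (2.02-fold) and at day 7 (2.20-fold), and no member reached it at days 14 and 28. Over all genes, 8.01%, 3.86%, 6.38% and 7.48% moved at least 2-fold in AMs at days 3, 7, 14 and 28. Fth1 in AMs stood highest at day 7, and Srxn1 at day 28 was at 0.519 of its sham level.

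Below the 20 CPM level, Slc40a1 in AMs went from 2.94 CPM (exact Poisson interval 2.62 to 3.29) in the sham library to 19.3 CPM (18.3 to 20.3) at day 28, from 310 and 1537 UMIs. The day 7 and day 14 ratios were 2.46 and 3.97 and the day 28 ratio 6.55. Neutrophil markers summed to 322 CPM in AMs of the sham library and 280 CPM at day 28, and RNA of neutrophils at those levels would have brought 0.787 and 1.10 CPM of Slc40a1. Slc11a1 in AMs was 6.0, 3.72, 2.23 and 3.92 times its sham level at days 3, 7, 14 and 28. IM markers in AMs rose alongside, from 25.3 CPM in the sham library to 171, 251, 350 and 311 CPM, which would have brought 0.235, 3.52, 2.33, 2.95 and 3.68 CPM of Slc11a1. These intervals cover counting error only.

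Classical monocytes had the largest count of members past 2-fold on a single day among the 4 classes followed. At day 3, 6 of 8 members were at least 2-fold above the sham library and none below, where 18% of all genes moved 2-fold in either direction. Fth1 went from 4621 to 19111 CPM (4.14-fold) and Ftl1 from 5541 to 11117 CPM (2.01-fold). Hmox1 went from 58.9 to 211 CPM (3.58-fold). Slc7a11 rose from 33.1 to 116 CPM (3.52-fold), Txnrd1 from 25.8 to 66.3 CPM (2.57-fold) and Srxn1 from 25.8 to 61.3 CPM (2.37-fold). Ferritin thereby went from 1.02% to 3.02% of monocyte UMIs. Of the wider lists, 2 of 19 NRF2 genes, Txn1 and Sqstm1, were past 2-fold higher and Gsr and Gstm1 lower. At day 7, with 211 monocytes, 3 of 9 members were past 2-fold, Slc7a11 (5.23-fold), Txnrd1 (3.15-fold) and Gclc (2.00-fold), beside 12.7% of all genes, and Fth1 was at 1.92-fold. IM markers summed to 381, 875 and 820 CPM in the monocytes of the sham, day 3 and day 7 libraries, and their part in these ratios was not tested.

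In neutrophils at day 3, none of 9 members reached 2-fold, beside 9.45% of all genes, although Slc7a11 went from 1142 to 629 CPM. With the day 7 floor of 4624 UMIs set in every library, Fth1 passed 2-fold at day 3 (log2 1.10), and Hmox1 and Txnrd1 stood at 0.96 and 0.97. Without that floor, Srxn1 alone of 9 passed 2-fold at day 14 (2.84-fold, background 9.47%) and Gclc alone of 10 at day 28 (3.08-fold, background 13%). With the floor, Srxn1 and Txnrd1 had log2 ratios of 1.42 and 1.39 at day 14. At day 7, Slc7a11 fell to 0.279, Slc40a1 to 0.229 and Slc11a1 to 0.349 of the sham level and Gclc was 4.20-fold higher, but 42% of all genes moved 2-fold there. The day 7 neutrophils were 174 deep cells of the library with the high UMI floor, and neutrophil markers summed to 75374 CPM in them against 134442 CPM in the sham library. With the floor of 4624 UMIs set in every library, the log2 ratios at day 7 were −1.28 for Slc7a11, −1.09 for Slc40a1, −0.69 for Slc11a1 and 0.88 for Gclc. Txnrd1 stood at 1.02 there. Scaling by TMM factors moved the median gene at day 7 from 0.39 to −0.54 on the log2 scale, and the genes past 2-fold from 1823 higher and 614 lower to 656 and 1687. This scaling shifts the day 7 ratio of every gene down by the same amount, so the 3 lower members could only stay lower. Gclc had a log2 ratio of 1.34 under it.

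The sham library had only 63 IMs, and red cell transcripts made up 5468 CPM of them. Against them, Fth1 in IMs was 2.52, 2.04 and 2.70 times as high at days 3, 14 and 28, Gclm 2.02 times at day 7 and Srxn1 2.04 times at day 14, of 9 members. Over all genes 18.3%, 8.07%, 13.1% and 18.3% moved 2-fold at days 3, 7, 14 and 28.

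**Figure D4:**
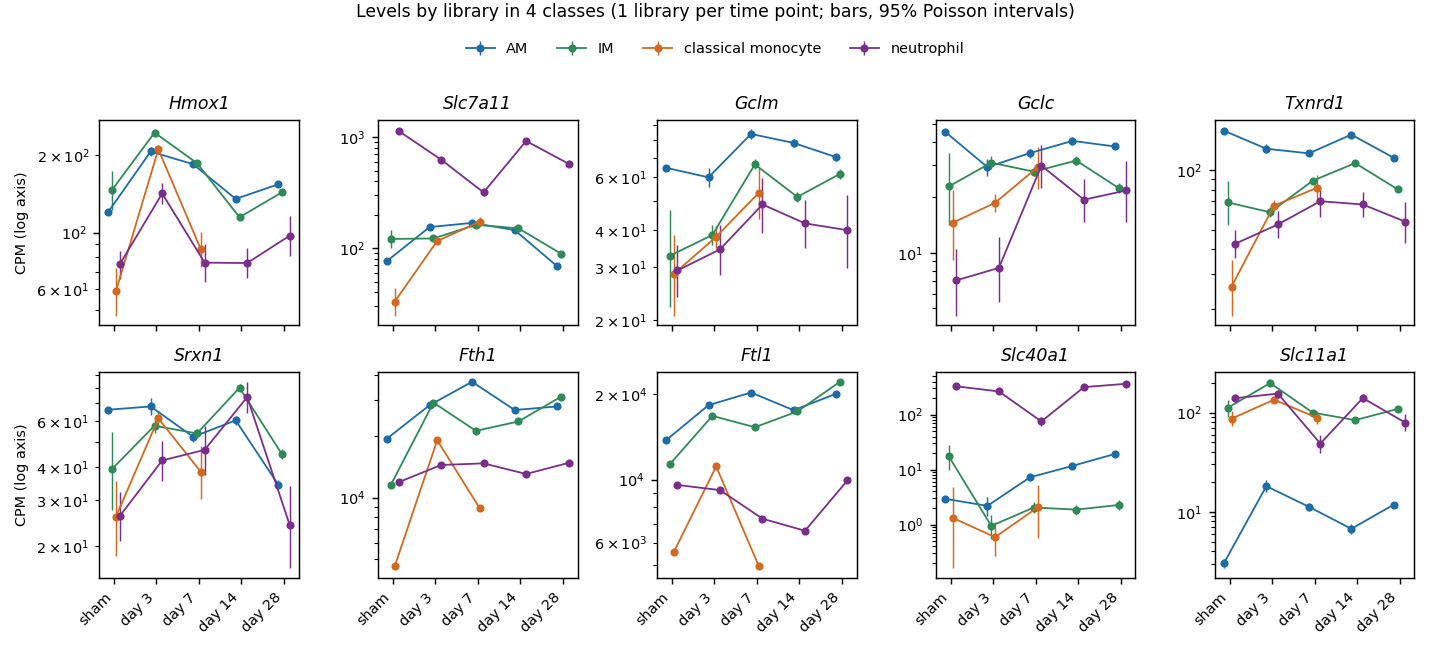
Levels of the 10 genes, in CPM on log axes, in AMs, IMs, classical monocytes and neutrophils of the sham library and of days 3, 7, 14 and 28, 1 library each, with exact Poisson intervals. Monocyte Fth1, Hmox1 and Slc7a11 stand above sham at day 3, and neutrophil Slc40a1 and Slc7a11 dip at day 7.

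Genes with the most similar pattern were ranked by Pearson's r of log2(CPM + 10) over 63 class-by-library sums, among 11801 genes. The points share libraries and cells of a class, so r is a description. Slc40a1 was closest to Cxcr2 (r = 0.955), a neutrophil chemokine receptor that was among the class markers, Il1f9 (0.941) and Gm17619 (0.940). Ftl1 was closest to Atp6v1b2 (0.937), a subunit of the vacuolar proton pump, Creg1 (0.928) and Plin2 (0.908). Fth1 was closest to Lhfpl2 (0.888), Creg1 (0.881) and Pla2g15 (0.873). Slc11a1 followed Pla2g7 (0.922) and Igsf6 (0.874). Hmox1 followed Mpp1 (0.874), Sdcbp (0.863) and Atp6v1e1 (0.845), and Slc7a11 followed Mcl1 (0.844), Tnfaip2 (0.838) and Il1rn (0.835). Gclc, led by its epithelial level, was near 2200002D01Rik (0.873), Ndnf (0.852) and Cdcp1 (0.843), whereas Gclm was near Mapre3 (0.782), Ctnnb1 (0.770) and Aco1 (0.765). Srxn1 was near Atp6v1b2 (0.793), Cstb (0.792) and Dram1 (0.784). Txnrd1 was near Setd8 (0.803), Gsto1 (0.755) and Srxn1 (0.735), the only case of a member among another's 3 nearest genes. Between members the highest r was 0.858, for Fth1 and Ftl1, and the lowest −0.366, for Slc11a1 and Gclc.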

How the data were processed

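The deposited files are UMI counts per gene and barcode from 10x 3′ v3.1 libraries, 1 per condition. Per the labels and the study's methods, the authors made them with Cell Ranger 6.0.0 on mm10. Barcodes with 300 to 8000 genes and 800 to 60000 UMIs, less than 15% of them mitochondrial, were kept. A cell took the class with the highest marker score if that score passed 0.25 and led the next by 0.05, and 2261 cells lay within 0.02 of the lead limit. Cells with AM and IM scores within 0.05 of each other, both ahead of the rest by 0.05, formed a mixed class. It held 252 cells, 157 of them at day 28, and is 1 of the 18 classes. Its cells were in neither the AM nor the IM sums. These limits were set after the files were seen. Predicted doublets were kept, and Scrublet in scanpy 1.11.5 removed them in an alternative. The members, gene lists and tests were chosen with earlier results of these data known.

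UMIs were summed over classes of at least 20 cells per library for tests and 50 for levels. Sums were compared between classes with edgeR 4.0.16 (filterByExpr, TMM, quasi-likelihood F test, library as block) with Benjamini-Hochberg adjustment over all genes tested, at 0.05. Each SE was derived as the absolute log2 difference divided by the square root of its F statistic. The procedure was tested on simulated data. P-values measure the spread of the class difference over the libraries in a test, each of a different day, since no day had a replicate. Comparisons with classical monocytes had 4 libraries and the others 5. Of the pathway lists, the 3 genes with the largest difference past the threshold in each direction are named. A few genes that this rule or the ranking of similar patterns would name are not reported here. Ratios to sham used genes at 20 CPM or more and no test. Intervals are exact Poisson intervals at 95%. Carried levels are the source class's level times the ratio of its marker sums in both classes. Alternatives were RLE normalization, no low-count filter, no library block, DESeq2 1.42.0, each library left out, doublets removed, a mitochondrial limit of 10%, a lead of 0.15, the UMI floor of day 7 and means of CPM per cell. Python 3.11.15 and R 4.3.3 were used. Gene positions are from GENCODE M21 and promoters from RefSeq.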

Additional observations from a re-analysis of the deposited data

Results flagged for a closer look

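Several genes moved at least 2-fold from sham in opposite directions in different classes on the same day. Each day had 1 library, so these differences were not tested, and the values are log2 ratios of CPM. Hmox1 at day 3 was 1.84 in classical monocytes and −4.05 in NK cells, where it went from 110 UMIs in 151 cells to 29 UMIs in 442 cells. Without thinning, the share of NK cells with a UMI was 3.97% in the sham library and 4.75% at day 3. Few cells thus held the sham UMIs. The median NK cell was deeper at day 3, with 5951.5 UMIs against 4354 in the sham library. After thinning to equal depth, the share was 2.76% in the sham library (interval 0.757% to 6.91%). At day 3 it was 1.85% (0.801% to 3.61%), and the intervals overlapped. The log2 ratio of Hmox1 at day 28 was 2.60 in T cells and −3.15 in NK cells, the latter from 5 UMIs. At day 7 this ratio was 1.75 in T cells and −1.83 in type 2 conventional DCs. Slc7a11 at day 7 was 1.14 in AMs, 1.86 in type 2 innate lymphoid cells, 3.83 in T cells, 2.05 in type 1 conventional DCs and 2.39 in classical monocytes, against −1.84 in neutrophils. The T cell value came from 5 UMIs in the sham library and 219 at day 7. IM markers summed to 5.63 and 271 CPM in the T cells of these libraries, and neutrophil markers to 101 and 519 CPM. In type 1 conventional DCs, IM markers went from 4.62 to 244 CPM and neutrophil markers from 553 to 360 CPM. The part of RNA from other classes in these ratios was not tested. Gclc at day 7 was 1.00 in classical monocytes, 2.07 in neutrophils and −1.33 in mature DCs, and at day 28 it was 1.62 in neutrophils, −1.66 in type 2 innate lymphoid cells and −1.30 in mature DCs, the sham values of which came from 55 mature DCs and 56 lymphoid cells. Txnrd1 at day 3 was 1.36 in classical monocytes and −1.32 in B cells. Ftl1 at day 3 was 1.00 in classical monocytes and −1.04 in NK cells. AM markers summed to 1861 and 132 CPM in the NK cells of the sham and day 3 libraries. In the B cells of these libraries they summed to 1240 and 126 CPM. The part of AM RNA in the Txnrd1 and Ftl1 ratios was not tested.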

How the results depend on the processing

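The comparisons of classes were paired within libraries by the block. Between days, no paired analysis was possible because the labels give 1 library per day and no replicate numbers shared between groups. With libraries left out in turn, the number of the 10 genes past the threshold ranged from 1 to 3 for AMs against IMs (2 with all libraries), 5 to 9 for AMs against classical monocytes (8), 0 to 3 for IMs against classical monocytes (3), 2 to 6 for neutrophils against classical monocytes (2) and 5 to 8 for fibrotic-marker-high against -low AMs (7). Without the library block, 0 passed for IMs against monocytes and 0 for the fibrotic split. Neutrophils against monocytes gave 4 with DESeq2 and 4 with the larger lead, both times adding Fth1 and Ftl1. Members past 2-fold over the 4 days were counted once per gene and day, so a gene can count more than once. By this count AMs had 2, both from Slc7a11, but 4 with means of CPM per cell and 9 without the low filter. IMs had 5, but 10 with doublets removed, 3 with the larger lead, 11 with means of CPM per cell, 8 with TMM scaling and 9 without the low filter. Neutrophils had 6, and 10 with TMM scaling. No total could be given for neutrophils under the day 7 UMI floor, since the day 28 library kept too few cells. The cause of these changes was not tested.

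Over all genes, the calls for the fibrotic split numbered 320 higher and 148 lower. They were 598 and 196 with no low-count filter, 12 and 0 without the block, 551 and 270 with markers at 2 UMIs, 673 and 378 with markers called at 5000 UMIs, 189 and 45 without the sham library, 169 and 31 without day 7 and 191 and 43 without day 28. AMs against IMs gave 2527 and 2598, but 1539 and 1435 without the block and 1674 and 1664 without day 14. IMs against monocytes gave 652 and 757, but 99 and 154 without the block, and 419 and 511, 463 and 393, 229 and 347, and 361 and 531 without the sham, day 3, day 7 and day 14 libraries. Neutrophils against monocytes gave 1870 and 1368, but 1206 and 695 without the block, 1118 and 807 with the day 7 floor, and 1036 and 459, 968 and 446, and 1132 and 670 without the sham, day 3 and day 14 libraries. TMM scaling moved the genes past 2-fold from 673 higher and 376 lower to 819 and 266 in monocytes at day 3 and from 305 and 815 to 604 and 483 in IMs at day 28. The ranked class with the highest level was the same for 9 of 10 genes with the larger lead and with means of CPM per cell, Hmox1 then being highest in IMs. Of the single-gene values, none reversed, 189 dropped past the threshold, 22 came to pass it, 181 without a test moved by more than their counting interval or spread and 2153 kept their side or size.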
